A study of Mus musculus with 2 samples.

Results

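In the E16.5 mouse dorsal telencephalon, 10 genes known from radial glia and from outer radial glia were followed through every cell class that marker genes could define. The 10 genes, among 32285 in the deposited tables, were Hopx, Tnc, Ptprz1, Lifr, Fam107a and Itgb5, which are used as markers of outer radial glia in other species, and Fabp7, Mt3, Slc1a3 and Ednrb, which mark radial glia in general. They were chosen by symbol. Among 12 cell classes, 6 of them had their highest mean level in radial glia. These include Slc1a3, which with Ednrb is among the genes that define radial glia here. They also include Ptprz1, whose values overlapped those of OPC-like cells (oligodendrocyte precursors). Lifr and Itgb5 had higher levels in non-neural classes, and Lifr also in Cajal-Retzius-like and OPC-like cells. Ednrb was higher in OPC-like cells, most of which are also in the radial glia class. Fam107a, with 20 UMIs in all 766 radial glia, had a higher mean in endothelial-like cells.

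The cells came from the dorsal telencephalon, the part of the embryonic brain that forms the cerebral cortex, and the labels name the tissue as brain hemispheres. The series concerns loss of the histone methyltransferase gene Dot1l under Emx1-Cre, which acts in cortical progenitors and their progeny. Here only 2 wild-type (WT) libraries were used, numbered replicate 1 and replicate 6 by the labels, and the Dot1l knockout was not analysed here. Both are of genotype WT and were untreated as far as the labels say, and whether WT includes a Cre or a floxed allele, and whether each library is a single embryo, is not stated in the sources used here. With a single group, all comparisons below are between cell classes, and p-values measure only the spread between these 2 libraries, which may be technical.

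Radial glia are the neural stem cells of the developing cortex: they line the ventricle, send a process to the pial surface and give rise to intermediate progenitor cells (IPCs), neurons and later astrocytes. Outer radial glia are related progenitors that have left the ventricular surface, and they are abundant in gyrencephalic mammals and scarce in mouse. Several of the genes act together at the cell surface: the tenascin C made from Tnc is a matrix protein that binds the receptor phosphatase Ptprz1, and Lifr is a subunit of the receptor for leukaemia inhibitory factor, which signals through gp130 (Il6st) and STAT3.

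The stretches of DNA before the transcription start of Tnc, Fabp7, Slc1a3 and Hopx are shown because these genes carry the results below and because the first 3 hold a motif. Each is the 250 bases before a RefSeq start on GRCm38.p6 (mm10), on the strand of the gene and 5′ to 3′. Capitals mark the letters TGGGAA on either strand (the core bound by RBPJ, the Notch effector) in Tnc and Fabp7, and TTCNNNGAA (the STAT motif) in Slc1a3.
Tnc, chr4:64046937-64047186, minus strand: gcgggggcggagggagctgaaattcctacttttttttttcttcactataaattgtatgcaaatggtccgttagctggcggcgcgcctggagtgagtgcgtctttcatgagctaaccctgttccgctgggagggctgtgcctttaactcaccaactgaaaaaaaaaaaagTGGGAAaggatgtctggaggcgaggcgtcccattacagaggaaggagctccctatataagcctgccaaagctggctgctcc
Fabp7, chr10:57784673-57784922, plus strand: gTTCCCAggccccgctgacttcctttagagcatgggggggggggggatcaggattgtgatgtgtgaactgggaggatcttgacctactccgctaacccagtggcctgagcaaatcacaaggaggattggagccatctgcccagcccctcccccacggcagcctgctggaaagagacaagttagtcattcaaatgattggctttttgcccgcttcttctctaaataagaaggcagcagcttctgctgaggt
Slc1a3, chr15:8710808-8711057, minus strand: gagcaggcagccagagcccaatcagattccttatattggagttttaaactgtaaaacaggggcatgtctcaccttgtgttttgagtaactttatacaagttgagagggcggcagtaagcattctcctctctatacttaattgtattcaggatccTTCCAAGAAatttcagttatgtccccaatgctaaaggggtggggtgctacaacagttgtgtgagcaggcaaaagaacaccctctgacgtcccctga
Hopx, chr5:77095268-77095517, minus strand: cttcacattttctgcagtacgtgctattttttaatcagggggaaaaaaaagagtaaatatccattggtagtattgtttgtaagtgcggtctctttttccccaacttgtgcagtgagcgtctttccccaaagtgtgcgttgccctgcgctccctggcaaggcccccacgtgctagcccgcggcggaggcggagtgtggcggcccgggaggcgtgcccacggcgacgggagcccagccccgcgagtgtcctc

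Among the 15 promoters that RefSeq gives for the 10 genes, TGGGAA was found in 4, which belong to Tnc, Fabp7 and Fam107a. The share over all 32851 mouse promoters of this length was 21.6%. The letters TTCNNNGAA were found in 1 of the 15 (7.02% of all promoters) and ACAATG, a SOX factor motif, in 1 of the 15, at Lifr (10.7% of all promoters). The motifs do not overlap each other in these stretches, and a match describes the letters only. In the Tnc stretch the match began 81 bases before the start, and in the Fabp7 stretch 249 bases before it. Neither Hopx promoter held any of the 3 motifs.

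The 2 libraries held 14136 and 13046 barcodes with 74930397 and 68964234 UMIs, of which 8139 and 8209 cells had 1500 to 60000 UMIs and under 10% mitochondrial UMIs. They shared 59 barcodes, 26 of them among the kept cells. Radial glia were cells with at least 3 of Hes5, Sox9, Slc1a3, Aldoc and Ednrb and no Eomes or Dlx1. WT replicate 1 had 376 of them and WT replicate 6 had 390, or 4.69% ± 0.0927 (SD, n = 2) of kept cells, with median depths of 10329.5 and 9662 UMIs. The gate was not sharp, since 113 and 108 of them had exactly 3 of the 5 markers, while 210 and 193 cells just outside had 2. General radial glia genes were present, with a median of 8 of 12 listed genes per cell (Vim, Nes, Sox2 and others).

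Cells with markers of other types also passed this gate. At least 3 of 5 oligodendrocyte precursor (OPC) markers were found in 23 and 24 radial glia. These are also 23 of the 38 and 24 of the 30 OPC-like cells, so these classes share most of the OPC-like cells. At least 3 of 5 excitatory neuron genes were found in 37 and 41 radial glia, and 6 cells of WT replicate 1 had 20 or more UMIs of the choroid plexus gene Ttr. Progenitor genes of the subpallium, the ventral telencephalon, were found in 24 and 22 radial glia (at least 3 of 6). For GABAergic neuron genes, at least 3 of 5 were found in 17 and 19. Summed over 5 genes, OPC markers were at 183 and 203 CPM (UMIs scaled to a total of 1000000 in each class and library) in radial glia against 7.68 and 7.13 CPM in IPC-like cells. Subpallial progenitor genes summed to 141 and 154 CPM in radial glia against 31.3 and 38.1 CPM in IPC-like cells. Choroid plexus genes were at 5437 CPM in WT replicate 1 and 20.2 CPM in WT replicate 6. Immediate early genes, which can respond to tissue handling, summed to 327 and 284 CPM in radial glia against 72.5 and 64.0 CPM in IPC-like cells, and their part in the results was not tested. The doublet caller marked 61 and 69 radial glia, or 16.2% and 17.7%, against 11.3% and 10.4% of all kept cells. Results were therefore also computed without marked doublets and, as a choice made after seeing the data, without radial glia that carried the markers of another class, which left 306 and 322 cells. The second set left no cell out for subpallial or GABAergic genes. In the second set the CPM values of Hopx, Tnc, Ptprz1, Itgb5, Fabp7, Mt3, Slc1a3 and Ednrb were higher in both libraries than in the full set.

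Hopx, which encodes a small homeodomain protein that does not bind DNA, was at 133 CPM in radial glia of WT replicate 1 and 118 CPM in WT replicate 6. The next class, endothelial-like cells, had 29.8 and 16.1 CPM, from 44 and 19 UMIs. IPC-like cells had 13.4 and 12.2 CPM and excitatory-neuron-like cells 1.92 and 1.74 CPM. Radial glia thus stood above all other classes in both libraries. Within radial glia the gene was unevenly seen: 212 and 224 cells had no Hopx UMI, 59 and 65 had a single UMI, and the highest counts in a cell were 23 and 13.

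Tnc was at 822 and 819 CPM in radial glia. OPC-like cells followed at 113 and 207 CPM, and progenitor-like cells of the ganglionic eminence (GE), the source of cortical interneurons, at 40.5 and 70.2 CPM. In IPC-like cells the values were 18.2 and 14.3 CPM. The Tnc level in radial glia was nearly the same in both libraries, whereas single cells ranged from 0 UMIs, in 106 and 107 cells, to 80 and 127 UMIs.

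Ptprz1 was at 2472 and 2469.7 CPM in radial glia and at 2240 and 2584 CPM in OPC-like cells, so the ranges of these classes, which share cells, overlapped. It was also widely present in neurons, at 695 and 715 CPM in excitatory-neuron-like cells, and at 660.2 and 690.4 CPM in GE-progenitor-like cells. IPC-like cells had 246 and 225 CPM, less than the neurons.

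Lifr did not follow the other genes. Its level in radial glia was 18.3 and 15.9 CPM, from 77 and 67 UMIs, while mural-like cells had 61.5 and 77.6 CPM and Cajal-Retzius-like cells 57.6 and 70.7 CPM. Microglia-like and endothelial-like cells were also higher, at 43.7 and 46.3 CPM and at 40.6 and 36.4 CPM. OPC-like cells had a mean of 34.4 CPM, from 8 and 16 UMIs. Mural-like and Cajal-Retzius-like cells overlapped, and both lay above the radial glia in each library.

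Itgb5, the integrin beta 5 subunit that pairs with the alpha V subunit as a vitronectin receptor, was at 43.7 and 49.0 CPM in radial glia. Microglia-like cells had 229.5 and 263 CPM and mural-like cells 90.6 and 99.9 CPM. Fibroblast-like cells, at 45.5 and 64.4 CPM, overlapped the radial glia. Among the neural classes, OPC-like cells came next to radial glia with 15.02 and 15.22 CPM from 6 and 5 UMIs.

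Fam107a, which encodes an actin-associated protein, gave 13 and 7 UMIs in radial glia, or 3.09 and 1.66 CPM, in 8 and 6 cells. Endothelial-like cells had 4 and 4 UMIs, or 2.71 and 3.38 CPM, which overlaps the radial glia values. Every other class had at most 3 UMIs in a library.

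Fabp7, the brain fatty acid-binding protein, was at 7934 and 9628 CPM in radial glia, 4145 and 6572 CPM in OPC-like cells and 669 and 664 CPM in GE-progenitor-like cells. IPC-like cells had 358 and 404 CPM. Mt3, a metallothionein that binds zinc and copper, was at 1522 and 937 CPM in radial glia and at most 131 CPM in any other class and library. It was higher in WT replicate 1 than in WT replicate 6 in every class but the OPC-like cells.

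Slc1a3 and Ednrb were 2 of the 5 genes that defined the radial glia, so their levels there are a description. Slc1a3, the glutamate transporter GLAST, was at 754 and 791 CPM in radial glia, and fibroblast-like cells came close with 696 and 686 CPM. Ednrb, the endothelin B receptor, was at 247 and 206 CPM in radial glia and at 325 and 295 CPM in OPC-like cells, which lay above them in both libraries although most of these cells are also in the radial glia class, through a gate that uses Ednrb. Microglia-like cells had 119 and 90.02 CPM of Ednrb, against 2.79 and 2.09 CPM in IPC-like cells.

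**Figure D1:**
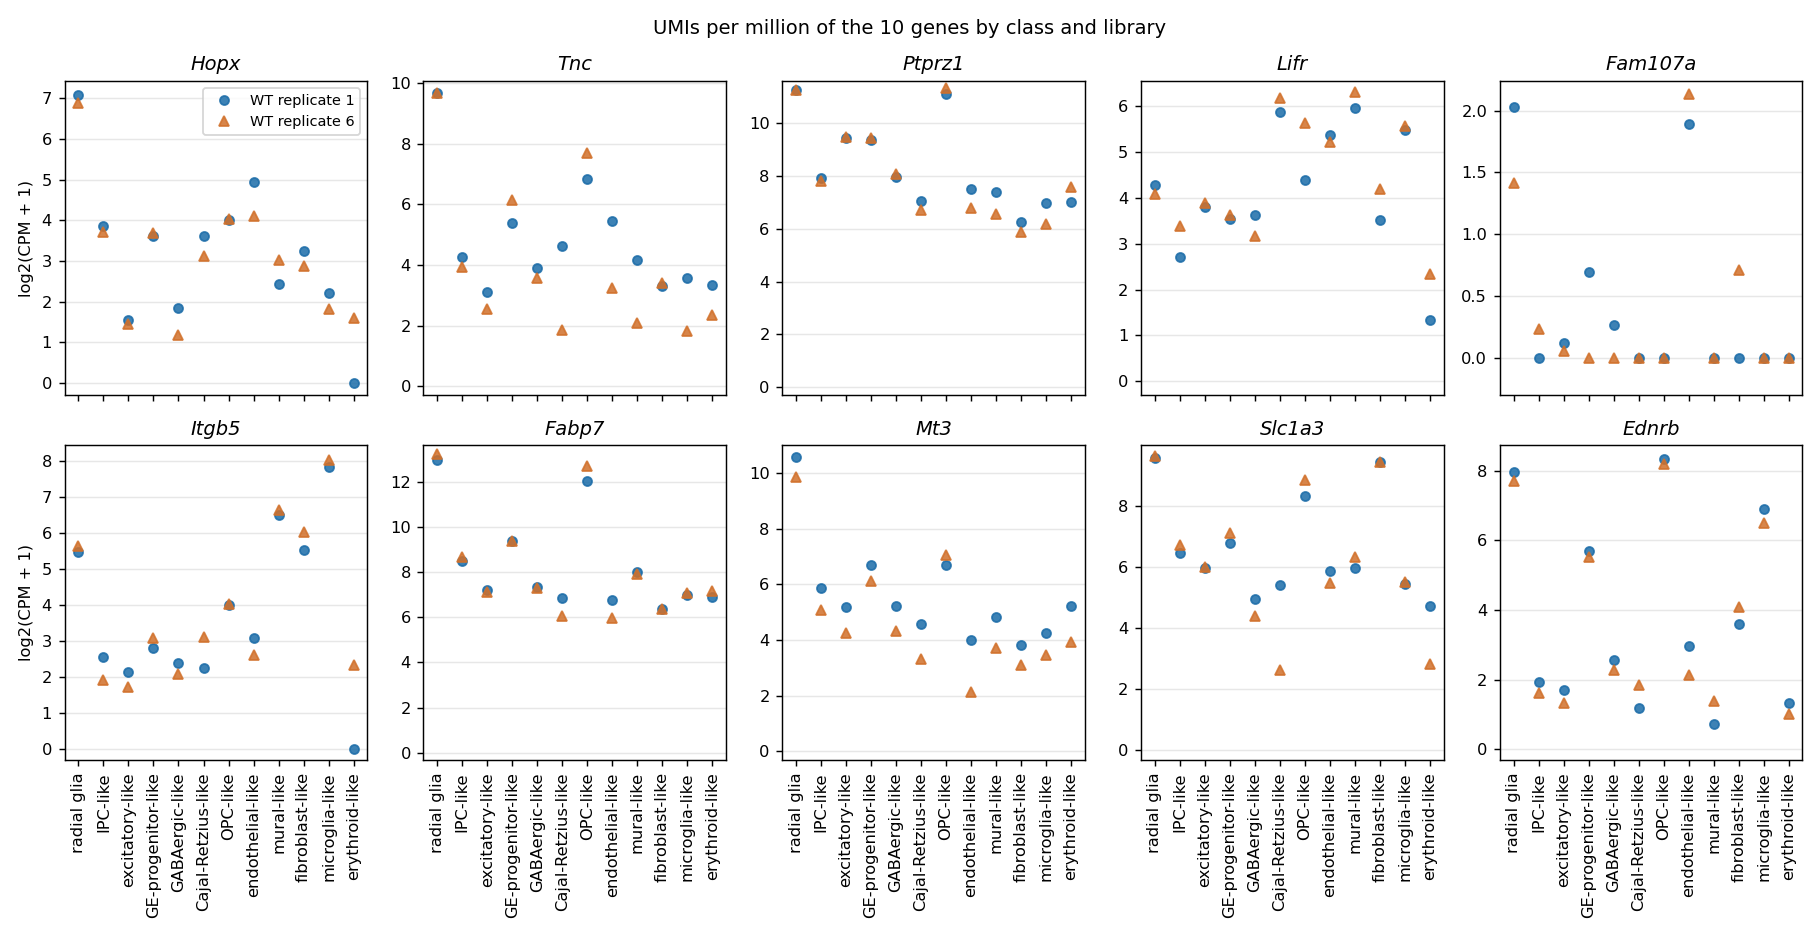
Level of each of the 10 genes, as log2(CPM + 1) on the vertical axis, in 12 cell classes for WT replicate 1 (circles) and WT replicate 6 (triangles). Radial glia have the highest mean level for 6 genes, while Lifr, Itgb5, Fam107a and Ednrb have a higher mean in another class. Among the 6 genes, Ptprz1 overlaps between radial glia and OPC-like cells. Slc1a3 and Ednrb are among the genes that define radial glia.

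In all, 6 of the 10 genes had their highest mean CPM in radial glia among 12 classes. They include Slc1a3, which is part of the radial glia gate, and Ptprz1, whose values overlapped those of OPC-like cells. Without marked doublets the number was 7, since Fam107a then had its highest mean in radial glia, and in single libraries it was 7 and 5. The share of all genes that had their highest mean in radial glia is not given here. The classes were gated on raw counts, and 31.3% and 27.8% of kept cells fell in no class.

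To set the classes side by side at equal depth, each cell was thinned to 2000 UMIs, which left out 3 radial glia of WT replicate 6. At this depth Fabp7 was detected in 94.6% of radial glia (95% Wilson interval 92.8 to 96.0%) and Ptprz1 in 90.7% (88.4 to 92.6%). Slc1a3 was detected in 72.5% (69.2 to 75.5%), Mt3 in 69.9% (66.5 to 73.0%), Tnc in 50.5% (46.9 to 54.0%) and Ednrb in 36.6% (33.2 to 40.04%). Hopx was found in 19.5% (16.9 to 22.5%), in 19.7% and 19.4% of the cells of the 2 libraries. Itgb5 was found in 9.44% (7.56 to 11.7%), Lifr in 2.75% (1.81 to 4.17%) and Fam107a in 0.524% (0.204 to 1.34%). The intervals cover counting error only. Without thinning the shares were higher throughout, for example 43.1% for Hopx, 72.2% for Tnc and 31.3% for Itgb5.

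As a measure of the background from free RNA, the shares were taken in erythroid-like cells. In erythroid-like cells, which should lack these genes, Hopx was found in 0.488% of cells (0.0862 to 2.71%), Tnc in 1.95% (0.761 to 4.91%) and Ptprz1 in 13.7% (9.62 to 19.03%). Fabp7 was found in 27.3% of erythroid-like cells (21.7 to 33.8%), and the 26.0% of excitatory-neuron-like cells (24.8 to 27.2%) is not above that. Erythroid-like cells had median depths of 6325 and 7115 UMIs before thinning. Lifr was found in 2.36% of excitatory-neuron-like cells (1.97 to 2.83%), within the interval of the radial glia share. In IPC-like cells Fam107a was found in 0 of 512 and 0 of 567 cells, which together allows a share of cells with a UMI at this depth of up to 0.278% (3 counts over both libraries). Without thinning, 1 UMI was found in IPC-like cells of WT replicate 6.

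**Figure D2:**
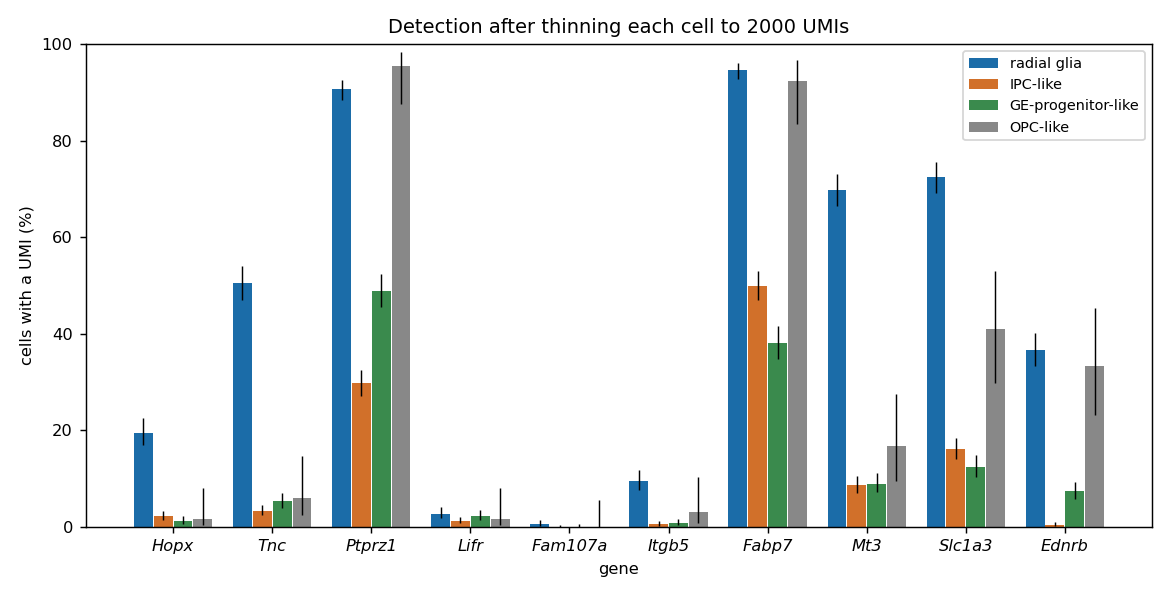
Percent of cells with at least 1 UMI of each gene after thinning each cell to 2000 UMIs, for radial glia and IPC-like, GE-progenitor-like and OPC-like cells, with both libraries pooled and 95% Wilson intervals as error bars. Hopx, Tnc and Mt3 are far more often detected in radial glia than in the other 3 classes, while Ptprz1 and Fabp7 are as frequent in OPC-like cells.

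Radial glia were next compared with the IPCs they give rise to. Of the 9 genes that could be tested, all 9 were higher in radial glia, against 41.4% of all 13732 genes called in either direction and 22.0% called higher. IPC-like and excitatory-neuron-like cells were allowed at most 2 of the 5 radial glia markers, of which radial glia had at least 3. Genes that follow these markers may thus owe part of their difference to the gates, which was not tested. Counts were summed per library and class and compared by edgeR's quasi-likelihood test with Benjamini-Hochberg adjustment over all genes. The log2 difference was largest for Tnc, at 5.57 ± 0.141 (SE, adjusted p = 6.46e-07). Fabp7 differed by 4.44 ± 0.122 and Mt3 by 4.67 ± 0.332, followed by Itgb5 at 3.50 ± 0.227, Ptprz1 at 3.30 ± 0.0997 and Hopx at 3.20 ± 0.127. Lifr differed least, by 1.10 ± 0.264 (adjusted p = 0.0117), with 1.70 in WT replicate 1 and 0.76 in WT replicate 6. Its call was lost without the filter on low counts (edgeR adjusted p = 0.0777). Fam107a was too low to be tested.

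Slc1a3 and Ednrb were tested only with classes that do not use them: radial glia with at least 2 of Hes5, Sox9 and Aldoc (328 and 334 cells) and IPC-like cells with at most 1 of these 3. Ednrb was at 228 and 192 CPM in these radial glia and 6.10 and 4.85 CPM in these IPC-like cells, a log2 difference of 5.18 ± 0.159 (edgeR adjusted p = 4.14e-07). Slc1a3 was at 760 and 800.3 CPM against 92.5 and 111 CPM, a log2 difference of 2.86 ± 0.113. With these gates 40.0% of genes were called, and 21.4% were higher in radial glia. The values of the classes did not overlap for either gene.

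Cells with at least 3 of the 5 radial glia markers in which Eomes was also detected, 66 and 52 in number, belonged to neither class. Apart from Lifr and Fam107a, the levels of the genes in these cells lay between the classes. Tnc was at 316 and 530.1 CPM, Hopx at 91.6 and 75.9 CPM and Fabp7 at 3510 and 3341 CPM. Lifr, at 16.8 and 17.1 CPM, lay above the radial glia in WT replicate 6. Fam107a gave 3 UMIs in WT replicate 1, where it lay above the radial glia, and 0 in WT replicate 6. The doublet caller marked 16 and 20 of these cells. The part of doublets in these levels was not tested.

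Excitatory neurons are a later product of the lineage. Of 10 genes, 9 were higher in radial glia, where 59.8% of all 15928 genes were called in either direction and 30.3% higher (4820 higher and 4700 lower, or 5826 and 3607 without TMM scaling, which moved the median log2 difference of all genes from -0.03 to 0.14). Tnc differed by 6.88 ± 0.213 on the log2 scale, Hopx by 5.92 ± 0.127, Fabp7 by 5.77 ± 0.132, Mt3 by 5.34 ± 0.400 and Itgb5 by 3.85 ± 0.183 (edgeR adjusted p between 6.36e-07 and 3.66e-05). Ptprz1 differed by 1.63 ± 0.0822. Fam107a, with 20 UMIs in radial glia against 3 in excitatory-neuron-like cells, passed with 4.85 ± 0.670 (edgeR adjusted p = 7.53e-04). Lifr did not, at 0.19 ± 0.139 (edgeR adjusted p = 0.285), with 18.3 and 15.9 CPM against 12.9 and 13.7 CPM. With the gates applied at 2000 UMIs, Lifr passed at 0.63 ± 0.215 (edgeR adjusted p = 0.0313).

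With the gates that leave them out, Ednrb was higher in radial glia than in excitatory-neuron-like cells by 6.13 ± 0.161 and Slc1a3 by 3.47 ± 0.0798, where 58.3% of genes were called and 29.6% were higher. The Slc1a3 level in these neurons was 62.7 and 63.0 CPM and the Ednrb level 3.098 and 2.249 CPM.

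GE-progenitor-like cells, gated on Dlx1 with a further progenitor marker and without Eomes, are progenitors of another territory. Some radial glia also carried subpallial progenitor genes, as given above. The 9 genes tested were all higher in radial glia (37.0% of 13413 genes called in either direction, 19.4% higher and 17.6% lower). Tnc differed by 3.85 ± 0.238 on the log2 scale, Mt3 by 3.79 ± 0.293, Fabp7 by 3.67 ± 0.118, Hopx by 3.40 ± 0.138, Itgb5 by 2.74 ± 0.178 and Ptprz1 by 1.83 ± 0.0998 (edgeR adjusted p between 3.96e-06 and 8.10e-05). Slc1a3 differed by 2.63 ± 0.137 and Ednrb by 2.09 ± 0.130 with the gates that leave them out (36.3% of genes called, 18.9% higher and 17.4% lower). Lifr was near the threshold at 0.60 ± 0.197 (edgeR adjusted p = 0.0476) and lost its call under 5 of the alternatives, among them DESeq2 (adjusted p = 0.321) and the radial glia without cells of other classes (edgeR adjusted p = 0.140). These comparisons share their radial glia, and whether a gene differed more from 1 class than from another was not tested.

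**Figure D3:**
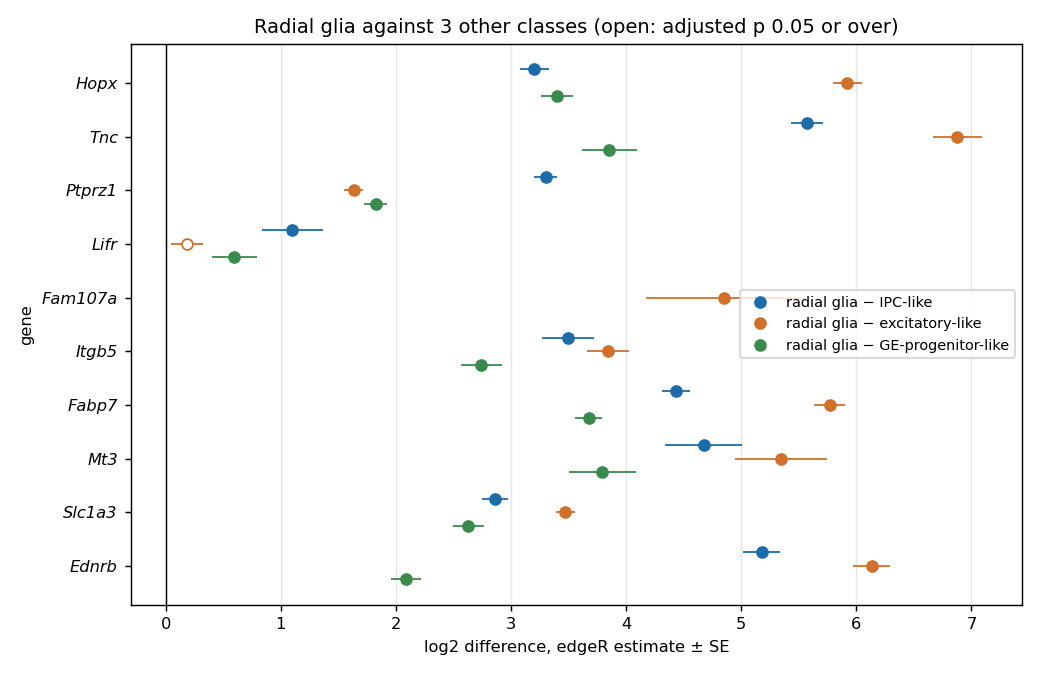
Log2 difference of each gene between radial glia and IPC-like, excitatory-neuron-like and GE-progenitor-like cells, with the standard error of the edgeR fit. All tested genes lie to the right of 0, filled circles passed an adjusted p of 0.05, and Lifr lies nearest to 0 in each comparison.

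The partners of these genes were described from fixed lists. Of 12 genes for ligands, co-receptors and partner integrins of Ptprz1 and tenascin, 6 were higher and 2 lower in radial glia than in IPC-like cells, with a median log2 difference of 0.49 against -0.02 over all genes, of which 22.0% were higher and 19.4% lower. Ptn, the ligand pleiotrophin, was at 2592 and 2936 CPM against 653 and 604 CPM, a log2 difference of 2.05 ± 0.0992. Bcan, the proteoglycan brevican, was higher by 3.45 ± 0.212, Cntn1, which binds Ptprz1, by 1.94 ± 0.122, and Itgav, the partner of Itgb5, by 1.88 ± 0.167. Mdk, the ligand midkine, was lower in radial glia, at 399.5 and 478.5 CPM against 698 and 771 CPM (log2 difference -0.83 ± 0.110). Nfasc, a cell adhesion molecule of neurons, was also lower in radial glia (log2 difference -1.32 ± 0.112).

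Against excitatory-neuron-like cells 6 of these 12 genes were higher and 3 lower (median 0.61), beside 30.3% and 29.5% of all genes. Against GE-progenitor-like cells 7 were higher and the other 5 did not pass (median 0.76), beside 37.0% of all genes called in either direction and 19.4% higher. Bcan was higher in radial glia in both, by 5.70 ± 0.140 and 2.76 ± 0.150, as was Itgav, by 3.08 ± 0.115 and 1.77 ± 0.145. Mdk was higher in radial glia than in excitatory-neuron-like cells, by 1.48 ± 0.0966, while Nfasc was lower there (log2 difference -2.14 ± 0.111).

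The LIF receptor pathway was present at low levels. The ligands Lif and Clcf1 gave 1 UMI each in radial glia and IPC-like cells together. Of 11 listed genes, 8 were tested against IPC-like cells and 4 were higher in radial glia (median log2 difference 0.48), where 22.0% of all genes were higher. Cntfr, the alpha subunit of the CNTF receptor, was at 44.4 and 44.0 CPM against 5.24 and 8.53 CPM, a log2 difference of 2.59 ± 0.208. Ctf1, the ligand cardiotrophin 1, was higher by 1.27 ± 0.300 and Jak1, a kinase of the pathway, by 0.42 ± 0.108. Il6st, the gp130 subunit, was at 25.2 and 22.4 CPM against 12.4 and 7.31 CPM, a log2 difference of 1.18 ± 0.251 (edgeR adjusted p = 0.00670). Stat3 was at 15.4 and 24.0 CPM against 17.1 and 20.01 CPM (log2 difference -0.0033 ± 0.219, edgeR adjusted p = 0.992).

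Against excitatory-neuron-like cells 6 of 9 tested genes of this pathway were higher and 2 lower in radial glia (median 1.65), where 30.3% of all genes were higher and 29.5% lower, with Stat3 higher by 1.75 ± 0.216. Against GE-progenitor-like cells 2 of 8 were higher (median 0.29), beside 19.4% of all genes, Ctf1 by 1.69 ± 0.341 and Il6st by 1.11 ± 0.188.

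Other genes used as outer radial glia markers were taken as a list of 8. Of these, 6 of 7 tested were higher in radial glia than in IPC-like cells, with a median log2 difference of 1.86. Of all genes, 22.0% were higher and 19.4% lower in this comparison. Acsbg1, an acyl-CoA synthetase, differed by 3.53 ± 0.368 and Pea15a, a phosphoprotein of astrocytes, by 2.99 ± 0.111. Gli3, a transcription factor of the Hedgehog pathway, differed by 1.86 ± 0.0902, while Moxd1 gave 29 UMIs in all and differed by 2.92 ± 0.623. The general radial glia genes had 9 of 12 higher and 1 lower, with a median of 1.85. Hes1, a Notch target, differed by 4.33 ± 0.300, and Lhx2 was the gene that was lower, at 162 and 177 CPM against 342 and 339 CPM.

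For the receptor Ednrb, the ligand genes Edn1 and Edn2 gave 4 and 2 UMIs over radial glia and IPC-like cells, and Edn3 gave 25. Ednra, the endothelin A receptor, was low but higher in radial glia, at 5.70 and 5.95 CPM against 1.57 and 0.522 CPM (log2 difference 2.36 ± 0.501). Ece2, an endothelin-converting enzyme, was higher by 1.39 ± 0.252. The median of the 3 tested genes of this list was 1.39.

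Radial glia divide, and the genes were therefore compared between cycling cells, with at least 3 of 10 cell cycle genes, and non-cycling cells, with at most 1. There were 199 and 210 cycling and 140 and 135 non-cycling radial glia. Hopx was higher in cycling cells and Ednrb, tested with the gate that leaves it out, was lower. These are 2 of 10 genes, which is near the share of all genes called, 18.4% of 11809 genes tested. Of the genes tested, 9.72% were higher and 8.71% lower in cycling cells.

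Hopx was at 167 and 128 CPM in cycling against 68.9 and 91.4 CPM in non-cycling radial glia. The values did not overlap, and the log2 difference was 0.91 ± 0.180 (edgeR adjusted p = 0.00629), with 1.27 in WT replicate 1 and 0.48 in WT replicate 6. Ednrb, with the gate that leaves it out, was at 175 and 149 CPM in cycling against 322 and 287 CPM in non-cycling cells. It differed by -0.88 ± 0.139 (edgeR adjusted p = 0.00148), by -0.88 and -0.95 in the 2 libraries. In this gate 17.1% of genes were called, 9.21% higher and 7.85% lower in cycling cells.

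Cycling cells had deeper libraries, with medians of 11493 and 11264 UMIs against 8127 and 7906. When all markers were read at 2000 UMIs per cell, the difference was 0.35 ± 0.226 for Hopx (edgeR adjusted p = 0.414) and -0.71 ± 0.190 for Ednrb (edgeR adjusted p = 0.0549). Neither then passed. With a cut of at least 2 against 0 cell cycle genes, Hopx differed by 0.61 ± 0.205 (edgeR adjusted p = 0.102) and Ednrb by -1.001 ± 0.196 (edgeR adjusted p = 0.0104).

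Markers of other cells were unequal between these groups. Summed over 5 genes, endothelial genes were at 8.22 and 11.6 CPM in cycling against 199 and 87.1 CPM in non-cycling cells, and choroid plexus genes at 23.1 and 14.4 against 14214 and 37.9 CPM. OPC genes were at 199 and 145 CPM in cycling and 208 and 306 CPM in non-cycling cells. Without radial glia that carry such markers, Hopx differed by 0.76 ± 0.176 and Ednrb by -0.98 ± 0.158 (edgeR adjusted p = 0.00869 and 8.62e-04).

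Of the other genes, Itgb5 was at 36.0 and 43.9 CPM in cycling against 53.5 and 62.1 CPM in non-cycling cells, with no overlap. Its log2 difference of -0.51 ± 0.180 did not pass (edgeR adjusted p = 0.0798), but did without marked doublets (-0.60 ± 0.188, edgeR adjusted p = 0.0475) and without cells carrying markers of other classes (-0.66 ± 0.186, edgeR adjusted p = 0.0248). Mt3 differed by -0.37 ± 0.247 (edgeR adjusted p = 0.345), and with the library as a replicate block by -0.39 ± 0.0689 (edgeR adjusted p = 0.00233). Lifr, at 40 and 36 UMIs in cycling and 34 and 21 UMIs in non-cycling cells, differed by -0.61 ± 0.293 (edgeR adjusted p = 0.191). Tnc, Ptprz1, Fabp7 and Slc1a3 lay between -0.22 and 0.22 on the log2 scale. Fam107a gave 5 UMIs in cycling and 15 in non-cycling cells (edgeR adjusted p = 0.0666).

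In the lists, Stat3 was lower in cycling radial glia, with a log2 difference of -1.18 ± 0.337. Cntn1, Nfasc, Bcan and Ncan, partners of Ptprz1 and tenascin, were lower as well, at -0.93 ± 0.170, -0.84 ± 0.184, -0.73 ± 0.157 and -0.53 ± 0.151. Of 11 tested partners 4 were lower and 1, Nrcam, was higher, where 8.71% of all genes were lower and 9.72% higher. Among the general radial glia genes 4 of 12 were higher and 3 lower, led by Pax6 at 1.20 ± 0.159 and Glul, glutamine synthetase, at -0.67 ± 0.171. Slco1c1, a thyroid hormone transporter, and Gli3 were higher by 0.94 ± 0.153 and 0.66 ± 0.115. Gli3 is in the list of other outer radial glia genes, of which 2 of 6 tested were higher and 1 lower (median -0.25).

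Radial glia were last split by Hopx itself, with every cell thinned to 2000 UMIs. Hopx was detected in 74 and 75 radial glia and not in 302 and 312. None of the 7 other genes that could be tested passed edgeR's test in the main fit, which did not pair the sums by library. Tnc, 1 of these 7 genes, had an unadjusted p under 0.05. In the gate of 5 of them 0.688% of 6975 genes were called, 0.0430% higher and 0.645% lower in Hopx-detected cells, and 644 had an unadjusted p under 0.05. In that of Slc1a3 and Ednrb 0.817% were called, 0.0801% higher and 0.737% lower. DESeq2 called 0 of the 6 genes to which it gave an adjusted p.

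Tnc had the largest difference of them, at 1622 and 1140 CPM in Hopx-detected against 788 and 811 CPM in other radial glia. The values did not overlap, and the log2 difference was 0.78 ± 0.184 (edgeR adjusted p = 0.0690). With the library as a replicate block Tnc passed at 0.77 ± 0.116 (edgeR adjusted p = 2.85e-04), and it passed when cells were split on all their UMIs (1.01 ± 0.152, edgeR adjusted p = 0.0195). Without radial glia carrying markers of other classes it differed by 0.60 ± 0.196 (edgeR adjusted p = 0.403).

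Ptprz1, at 2993 and 2400 CPM against 2601 and 2709.9 CPM, and Fabp7, at 10000 and 10087 CPM against 8298 and 10549.7 CPM, overlapped between the groups. Itgb5 was at 40.5 and 46.7 CPM against 61.3 and 62.5 CPM (log2 difference -0.51 ± 0.394, edgeR adjusted p = 0.764). Mt3, Slc1a3 and Ednrb had log2 differences of -0.11 ± 0.229, -0.065 ± 0.179 and -0.097 ± 0.263. Lifr and Fam107a were too low to be tested. Of the Hopx-detected cells 63.5% and 69.3% were cycling by the criterion above, against 50.3% and 50.6% of the others.

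Of the 48 genes that did separate these groups, 45 were lower where Hopx was detected. Lhfpl3 was at 6.76 and 6.67 CPM against 224 and 272 CPM (log2 difference -5.15 ± 0.468, edgeR adjusted p = 1.62e-05). Pdgfra, the PDGF receptor that defines OPCs, Brinp3, Igf1 and Cntn5 gave no UMI in the 74 and 75 Hopx-detected cells. Pdgfra was at 56.3 and 43.3 CPM in the others. Tnr (tenascin R), Syn2, Serpine2, Npy and Csmd3 made up the rest of the 10 genes with the largest differences, all lower. OPC markers summed to 47.3 and 13.3 CPM in Hopx-detected against 220.2 and 234 CPM in other radial glia, and none of the 23 and 24 radial glia in the OPC gate had Hopx detected. Without cells that carried markers of other classes, 8 genes were called in place of 48, Igf1 and Npy still passed (edgeR adjusted p = 0.0434 each), and 7 of the 10 were too low to be tested.

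**Figure D4:**
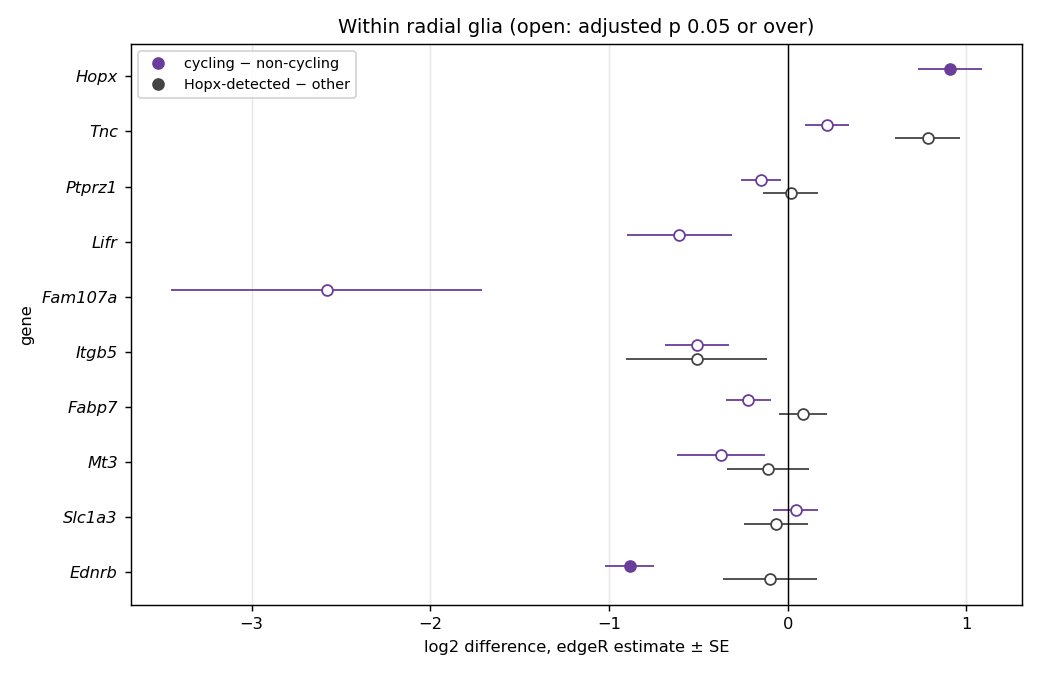
Log2 difference of each gene between cycling and non-cycling radial glia and between Hopx-detected and other radial glia, with the standard error of the edgeR fit. Only the filled circles, Hopx and Ednrb in the first comparison, passed an adjusted p of 0.05 in this fit, which has no library block. With the library as a block, Mt3 passed in the first comparison and Tnc in the second. Genes too low to test have no point.

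Finally it was asked whether the outer radial glia genes were found in the same radial glia, using cells thinned to 2000 UMIs and the gate without Slc1a3 and Ednrb. Tnc was detected in 67.6% and 66.7% of Hopx-detected cells against 45.8% and 50.6% of the others. Both genes were found in 46 and 46 cells, where the product of the single shares gives 34.2 and 37.2, or ratios of 1.34 and 1.24. Tnc and Itgb5 had ratios of 1.28 and 1.42, with 20 and 23 cells. At 1500 UMIs per cell they were 0.9902 and 1.20, so the excess was not seen in WT replicate 1 at that depth. Tnc and Ptprz1 had ratios of 1.07 and 1.06, Hopx and Ptprz1 1.05 and 1.02, and Ptprz1 and Itgb5 1.11 and 1.08. Hopx and Itgb5 went opposite ways in the libraries, at 0.778 and 1.12, from 5 and 7 cells. No pair with Lifr or Fam107a had more than 8 cells.

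Of the 6 outer radial glia genes a radial glial cell had 1.74 and 1.77 on average. Cells with 3 of the 6 made up 19.2% and 17.8%, where independent detection gives 13.95% and 14.28%, and cells with none made up 6.71% and 4.82%, where it gives 3.47% and 2.47%. Cells with 2 made up 37.2% and 41.3%, where independent detection gives 45.3% and 48.0%. Cells with 4 made up 1.22% and 1.81%, where independent detection gives 1.29% and 1.09%, so the excess was not seen there in WT replicate 1. A single cell of WT replicate 1 had 5 genes, and none had all 6. These shares are descriptions of cells, which are not replicates, and cells of other types in the gate enter them.

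**Figure D5:**
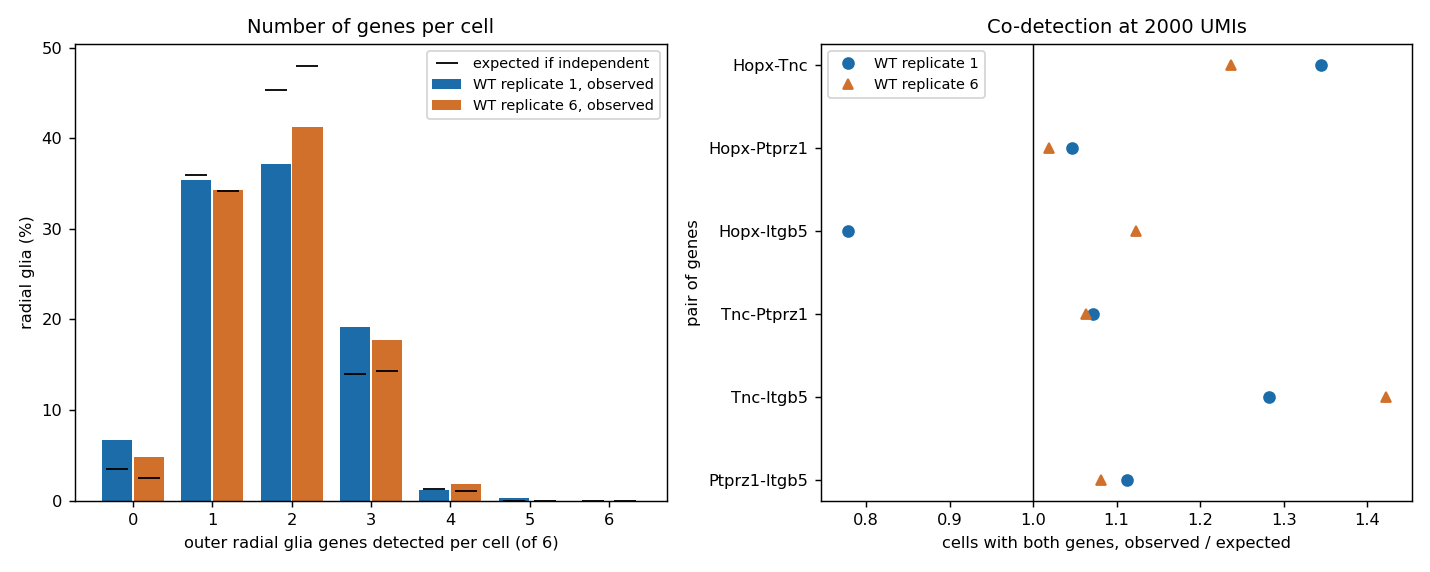
Left, percent of radial glia (2 or more of Hes5, Sox9 and Aldoc) by the number of outer radial glia genes detected at 2000 UMIs, with the percent expected from independent detection as black dashes. Right, observed over expected number of cells with both genes for 6 pairs in each library, at 2000 UMIs, where Hopx with Tnc and Tnc with Itgb5 lie farthest above 1 in both libraries. At 1500 UMIs Tnc with Itgb5 was at 0.9902 in WT replicate 1.

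Patterns over the 12 classes were compared by the Pearson r of log2(CPM + 10) over 24 class-by-library sums, which share libraries and some cells. Hopx was most like Psph (0.900), Veph1 (0.889) and Cfap54 (0.887). Tnc was most like Mlc1 (0.973), Cfap54 (0.962) and Ttyh1 (0.953), and Ptprz1 like Shc3 (0.917), Ttyh1 (0.912) and Gm35040 (0.908). The genes nearest to Lifr were Eps8 (0.898), Prkcb (0.878) and Fam118a (0.858), and those nearest to Itgb5 were Lactb2 (0.931), Cebpb (0.930) and Dse (0.922). For Fam107a the nearest were Colgalt2 (0.895), Tspan18 (0.892) and Lxn (0.886), although Fam107a itself never reached 20 CPM. The 4 general genes were nearest to Sox3 (Fabp7, 0.979), Aldoc (Mt3, 0.966), Vcam1 (Slc1a3, 0.928) and Psat1 (Ednrb, 0.943). Slc1a3, Ednrb and Aldoc are among the genes that define or limit the classes, so part of their patterns is set by the gates. Between the 10 genes the highest values were those of Tnc with Mt3 (0.931) and with Fabp7 (0.915), and the lowest those of Ptprz1 with Itgb5 (-0.210) and of Lifr with Mt3 (-0.207).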

How the data were processed

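Dissociated cells of the E16.5 dorsal telencephalon of 2 WT libraries were profiled on the 10x Genomics platform (3' chemistry v3.1). The deposited matrices hold raw UMI counts per gene and cell, which the authors made with Cell Ranger 7.0.0 and build mm10, per the submitters' processing notes; they were not normalized. Whether intronic reads were counted is not given in the sources used here, and this choice moves counts of long genes.

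A cell was kept if it had between 1500 and 60000 UMIs, less than 10% of them mitochondrial. Classes were gated on the raw counts by markers and named "X-like"; no clusters were made. The full marker set of the GE-progenitor-like gate is not reported here. Outside radial glia, a class other than the OPC-like and GE-progenitor-like cells allowed at most 2 of the 5 radial glia markers. For Slc1a3 and Ednrb this limit was replaced by at most 1 of Hes5, Sox9 and Aldoc. Doublets were scored with Scrublet (scanpy 1.11.5), the highest scores were marked at a rate of 0.8% per 1000 barcodes, and marked cells were kept in the main results and left out in an alternative. Counts were summed per library and class (2 sums per class) and tested with edgeR 4.0.16 (quasi-likelihood, two-sided, TMM, filterByExpr, Benjamini-Hochberg over all genes tested, threshold 0.05). Each standard error was the log2 difference divided by the root of its F statistic, and single-library differences used a prior count of 0.5. Alternatives were DESeq2 1.42.0, no TMM, no filter, a library block, stricter gates and filters, and each library alone. Where a cell was thinned, UMIs were drawn without replacement.

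Both sums of a comparison came from the same libraries, which pairs them; deviations of same-library sums from their class means had an r of 0.29, 0.32, 0.27, 0.16 and 0.14 across genes in the 5 comparisons, in the order of the report. The test against IPC-like cells was checked on simulated counts with known changes, and most of the smallest of these changes were not recovered.

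The genes, gene lists and tests were chosen with earlier results of these data known. Named genes were the 10 genes, up to 4 genes of each list with the largest called difference (and those a sentence turns on), the 10 genes with the largest called difference in the Hopx split with the same sign in both libraries and at least 50 UMIs, and the 3 genes most like each outer radial glia gene. Nfasc, Mdk, Lhx2, Nrcam, Stat3, Lif, Clcf1, Edn1, Edn2 and Edn3 outside this rule were named after their values were seen.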

Additional observations from a re-analysis of the deposited data

How the results depend on the processing

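In each of the comparisons of radial glia with IPC-like, excitatory-neuron-like and GE-progenitor-like cells, the number of the 10 genes called stayed within 1.5 times the main value of 9 under every alternative, and in each library alone the same number of tested genes was higher in radial glia. Lifr moved across the threshold: against IPC-like cells it lost its call without the filter on low counts, against GE-progenitor-like cells under 5 alternatives, and against excitatory-neuron-like cells it gained one with gates at 2000 UMIs. In the cycling comparison 2 genes were called, against 0 with gates at 2000 UMIs and 1 with the cut of 2 against 0. In the Hopx split no gene was called, against 1 (Tnc) with the library as a replicate block and 1 (Tnc) with an unthinned split. There, 3 tested genes had a positive difference, against 1 to 5 in single libraries. The block changed no other call of the 10 genes except that of Mt3 between cycling and non-cycling cells. The ratio for Hopx with Tnc, 1.29 on average, was 1.41 at 1500 UMIs and 1.19 at 4000 UMIs, and 1.24 to 1.34 in single libraries. The cause of these moves was not tested.

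Signs that changed belonged to differences that were never called. Slc1a3 in the cycling comparison went from 0.05 to -0.12 with a gate of 4 markers, -0.22 with gates at 2000 UMIs and -0.034 without other-class cells, and in single libraries lay between -0.062 and 0.097. Tnc there went from 0.22 to -0.21 with gates at 2000 UMIs and -0.022 without other-class cells. In the Hopx split Ptprz1 went from 0.02 to -0.050 (no filter), -0.012 (no doublets), -0.10 (4 markers), -0.047 (2000 UMIs), -0.020 (stricter cell filter), -0.077 (no other-class cells) and -0.19 (unthinned). Fabp7 went from 0.08 to -0.028 (4 markers) and -0.014 (no other-class cells), and Itgb5 from -0.51 to 0.10 (2000 UMIs). In single libraries Ptprz1 lay between -0.17 and 0.20, Fabp7 between -0.064 and 0.27, Slc1a3 between -0.34 and 0.19 and Ednrb between -0.79 and 0.40.

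Over all genes, DESeq2 called 3580 against 5688 (IPC-like), 3061 against 4957 (GE-progenitor-like) and 969 against 2176 (cycling). The cycling count was 805 with gates at 2000 UMIs and 1134 with the cut of 2 against 0. In the Hopx split 48 genes were called, against 7 by DESeq2, 19 without TMM, 1 without a filter, 117 with the block, 11 without doublets, 13 with 4 markers, 0 with gates at 2000 UMIs, 8 without other-class cells and 190 unthinned. With the gates that leave out Slc1a3 and Ednrb, the count against IPC-like cells also moved, from 5422 to 3376 by DESeq2 and 3575 with gates at 2000 UMIs. With 2 libraries and Lifr and Fam107a at under 20 CPM, smaller differences of these genes were not detectable at this depth.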
